A study of Mus musculus with 9 samples.

Results

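The genes of the cytosolic ribosome were compared in 9 mouse embryonic stem cell (mESC) lines of 3 origins. A member was any gene symbol that the array annotation gave alone to at least 1 transcript cluster (probes summarized together as a gene, here called a row) and that was made of Rpl or Rps, a digit and any suffix, or was Rplp0, Rplp1, Rplp2 or Rpsa. Pseudogene symbols, the Rps6k kinases and Rpl3, Rpl7, Rpl10, Rpl22, Rpl39 and their -like paralogs were left out. This gave 56 of the 19938 symbols on the array, 31 of the large and 25 of the small subunit by name. Each member was described by its row with the highest mean over the 9 lines.

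All lines were C57BL/6 mESC labelled female, with 1 Affymetrix Mouse Gene 1.0 ST array per line and 3 lines per group. The mESCFB lines (FB1, FB2 and FB3), the control, came from blastocysts flushed after natural mating of hormone-primed females. The mESCKAA lines (KAA1, KAA2 and KAA3) came from embryos fertilized in vitro (IVF) and grown under 5% O2 in KSOM that contained amino acids. The mESCWM lines (WM1, WM2 and WM3) also came from IVF embryos, but these were fertilized and grown under 20% O2 in Whitten's medium. The oocytes for both IVF groups came from hormone-primed females as well. After the blastocyst stage the groups were treated alike: each line was started from a single blastocyst on CF-1 mouse embryonic fibroblast feeders with leukemia inhibitory factor and 2i (inhibitors of GSK3 and MEK), was kept under 20% O2, was moved to gelatin for its last passages and was collected at the eighth passage. The comparisons therefore ask whether lines that shared a culture still differed by the history of the embryo. A level is a log2 array signal, so a difference of 1 is a factor of 2.

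The cytosolic ribosome is built in the nucleolus from ribosomal RNA and a copy each of most ribosomal proteins, and the small subunit reads the mRNA while the large subunit joins the amino acids. Many of the mRNAs for its proteins start with a terminal oligopyrimidine tract, a C followed by an unbroken run of C and T, through which mTOR signaling controls their translation in concert. Growing cells such as mESC make large amounts of these mRNAs, and the mouse genome holds many processed copies of them, so that array probes often cannot tell a gene from its copies.

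Runs of C and T lie near the annotated start of many members. Whether a run began with a C at the start itself was not checked. RefSeq promoters of the build GRCm38.p6 (250 bases before and 50 after the start) were found for 45 members, and none for Rpl8, Rpl21, Rpl23a, Rpl29, Rpl30, Rpl36, Rplp1, Rps4l, Rps14, Rps20 and Rps29. The windows below hold 15 bases before and 15 from the start on. The longest run of C and T is in capitals where it has 5 or more bases. This run need not include the start, and in Rps15a, Rpl36a and the upstream start of Rpl34 it does not. Rps6 (chr4:86857353-86857382, minus strand), Rps18 (chr17:33955651-33955680, minus strand) and Rpl28 (chr7:4792950-4792979, plus strand) are abundant members shown for their long runs.
Rps6: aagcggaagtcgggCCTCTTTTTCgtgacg
Rps18: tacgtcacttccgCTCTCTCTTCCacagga
Rpl28: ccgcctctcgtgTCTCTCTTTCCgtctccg
The next windows belong to members described in the group comparisons below. These are Rps15a (chr7:118116133-118116162, minus strand), Rps3 (chr7:99483695-99483724, minus strand), Rpl14 (chr9:120571502-120571531, plus strand) and Rpl34, which has an upstream (chr3:130730384-130730413) and a downstream start (chr3:130730323-130730352) on the minus strand.
Rps15a: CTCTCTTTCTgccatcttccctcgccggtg
Rps3: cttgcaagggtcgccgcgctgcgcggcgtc
Rpl14: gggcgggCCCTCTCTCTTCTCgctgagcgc
Rpl34, upstream start: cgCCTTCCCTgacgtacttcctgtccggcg
Rpl34, downstream start: CCTTCCTTTTCCTCTTCCggggacggtgct
The X-linked members Rps4x (chrX:102189377-102189406, minus strand) and Rpl36a (chrX:134585639-134585668, plus strand) and the symbols Rps23rg1 (chr8:3567983-3568012, plus strand) and Rps19bp1 (chr15:80264292-80264321, minus strand), which carry a ribosomal protein's name without being one, complete the set.
Rps4x: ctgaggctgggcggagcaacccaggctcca
Rpl36a: gtgcacccaggcaccgcctataaaCTTCCg
Rps23rg1: gctttgcagagagTCTTTCTCTCaccccag
Rps19bp1: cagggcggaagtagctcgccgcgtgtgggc
In a window of 50 bases centred on the start, 22 of the 45 members (48.9%) had a run of at least 8 pyrimidines on the strand of the gene, against 22.3% of all 27025 genes with a promoter, and the median longest run was 7 against 5 bases. In the whole 300 bases, on either strand, the ETS core CCGGAAG stood in 18 members (40.0% against 9.93% of all genes), the SP1 box GGGCGG in 27 (60.0% against 38.2%), the TATA box letters TATAAA in 5 (11.1% against 15.7%) and the YY1 core AAGATGGC in 1 (2.22% against 3.19%). The annotated start can lie some bases away from the start used by the cell, and these matches are descriptions of the letters alone.

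Ribosomal protein mRNAs stood at the top of the array. The median of the members' mean levels was 12.22 against 4.67 over all 23410 rows with a gene, and the median member lay at percentile 98.8 of these rows. Of the 56 members, 47 had a mean above 11, 3 between 9 and 11 and 6 below 9, and the highest value of any row in any line was 13.30. Rplp1, an acidic protein of the stalk that recruits the translation factors, had the highest member level, 13.17, followed by Rps29 at 12.93 and Rpl41 at 12.86. At the other end stood Rpl32l at 6.23, Rps23rg1 at 6.27 and Rpl12 at 6.73. Since the efficiency of probes differs, these levels place each row on the array and do not rank the mRNAs.

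Several low rows have a bright counterpart that is shared with another symbol. Rpl12, whose protein anchors the stalk, read 6.73 in its own row, while its 8 shared rows ran from 7.85 to 12.40. Rpl30 read 7.92 alone and 12.03 to 12.67 in 10 shared rows, and Rps15a read 7.38 alone and 12.41 to 12.55 in 2 shared rows. In all, 228 rows name a ribosomal protein gene together with other genes, and 17 symbols occur in such rows only, among them Rpl11, Rpl17, Rpl31, Rps16, Rps23, Rps24, Rps26 and Rps27. Of the members, 19 had 1 row of their own and 37 had several, up to 14 for Rps12. The rows of a member lay more than 1 apart in 2 members, Rpl23 (12.16 and 10.84) and Rpl7a (12.22, 11.67 and 10.20), and more than 0.5 apart in 12. In 5 members, 19 rows had the same values as another row, so rows of a symbol are not independent measurements.

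**Figure D1:**
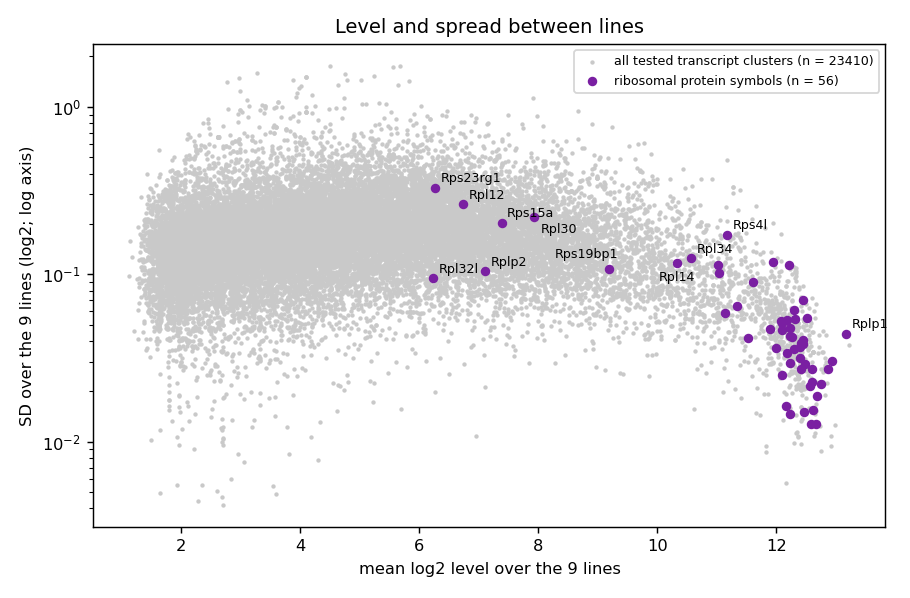
Mean level (x axis, log2) against the SD between the 9 lines (y axis, log2 units on a log axis) for all 23410 rows with a gene (grey) and the 56 ribosomal protein symbols (purple). Most members sit at the lower right, at high levels with an SD below 0.1. Rps23rg1, Rpl12, Rpl30 and Rps15a, all at levels below 9, reach 0.20 to 0.33.

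The lines differed little in these mRNAs. The SD between the 9 lines had a median of 0.043 over the members, against 0.162 over all rows with a gene and 0.127 over 77 mitochondrial ribosomal proteins (Mrpl and Mrps genes), which encode the separate ribosome of the mitochondrion. The high level goes with part of this: 347 other rows above 11 had a median SD of 0.069, against 0.039 for the 47 members above 11 and 0.125 for the 9 members at or below 11. The smallest SDs were those of Rpl23a and Rpl13 (both 0.013), Rps21 and Rpl27 (both 0.015). Rpl23a, at the exit of the peptide tunnel, ran from 12.65 in KAA2 to 12.69 in WM3. The widest SDs were those of Rps23rg1 (0.33), Rpl12 (0.26), Rpl30 (0.22) and Rps15a (0.20). The range between the lowest and highest line was below 0.1 in 16 members, 0.1 to 0.2 in 23, 0.2 to 0.5 in 12 and 0.5 or more in 5. How far the top of the array's scale narrows such values was not tested.

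What variation there was ran through many members at once. The median deviation of the members from their own mean over the lines was 0.026 in WM3, 0.020 in WM1, 0.012 in FB2, 0.010 in KAA2, 0.006 in FB1 and 0.002 in FB3, and -0.021 in KAA3, -0.025 in KAA1 and -0.025 in WM2. The low lines thus came from both IVF groups, and the high lines from all 3 groups. Over the 347 other rows above 11 the median deviation was -0.018 in WM2 and between -0.001 in KAA1 and 0.022 in FB1 in the other lines. WM2 was thus the low line there too. In WM3, 43 of the 56 members lay above their own mean, against 13 in KAA1, 16 in WM2 and 20 in KAA3. WM1 was the highest line of 16 members and WM3 of 11, and WM2 was the lowest of 17 members and KAA3 of 14. In some members the rows of a gene repeated the order. Rps12, of the small subunit head, was highest in WM3 and lowest in WM2 in all 14 of its rows, some with identical values. Rpl5, which carries 5S ribosomal RNA into the large subunit, was highest in WM1 and lowest in WM2 in all 5 of its rows. Rps6, the substrate of the S6 kinases, was lowest in KAA3 in all 8 of its rows. In other members the rows differed: those of Rpl21 were highest in FB1, FB2, WM1 or WM3. The SD of the 9 line medians was 0.020, and arrays normalized to each other cannot show a change shared by the whole mRNA pool.

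**Figure D2:**
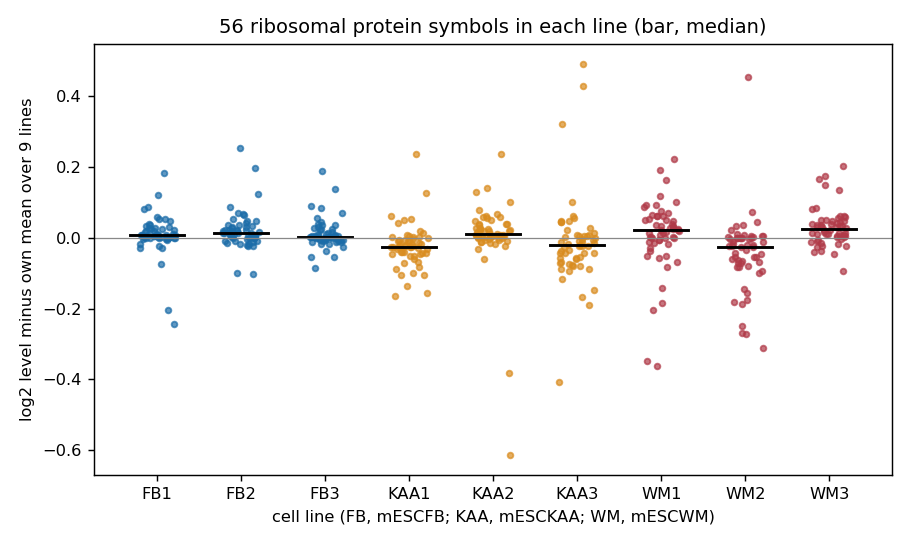
Each point is 1 of the 56 members, placed by its log2 level in a line minus its mean over the 9 lines (y axis), for each line (x axis, coloured by group), and the bars are medians. The medians stay between -0.025 and 0.026, with KAA1, KAA3 and WM2 below 0 and WM1 and WM3 above FB1 to FB3.

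Before the group comparisons, the identity of the lines was checked. Pou5f1, which defines pluripotent cells, read 10.31 to 10.43 in mESCFB, 10.10 to 10.30 in mESCKAA and 10.07 to 10.16 in mESCWM, a difference of -0.26 ± 0.08 (SE; limma adjusted p = 0.819) for mESCWM minus mESCFB. Tdgf1, a co-receptor of pluripotent cells, read 11.82 to 11.93, 11.74 to 11.79 and 11.59 to 11.63 in the same order, with -0.27 ± 0.06 (adjusted p = 0.733). Over the 12 pluripotency markers the median difference for mESCWM minus mESCFB was -0.13, with 4 above 0, and Nanog ran from 8.52 to 10.35 with overlapping groups. Of the fibroblast markers, Dcn, Lum, Postn, Fap and Prrx1 lay between 1.68 and 3.52 in all lines. The summed linear signal of the 20 fibroblast markers was 1364 to 1495 in mESCFB, 1535 to 1836 in mESCKAA and 1995 to 2631 in mESCWM. It was led by Acta2, Vim and Fn1. Their mean log2 level was 4.77 to 4.82, 4.86 to 4.96 and 4.91 to 5.07, so mESCKAA and mESCWM overlapped. Of the 20, 16 had a higher mean in mESCWM than in mESCFB and 11 than in mESCKAA. Acta2 differed by 1.10 ± 0.25 (SE; limma adjusted p = 0.685) for mESCWM minus mESCFB. There the rank product described below called 1 of the 20, higher in mESCWM, and 0.111% of all rows. The part of either list of markers in the results below was not tested. The Y-linked gene Eif2s3y read 4.78 in FB1, 3.72 in KAA2 and 5.19 in WM3 and 1.77 to 2.20 in the other 6 lines, although all are labelled female. Of the differences followed here, those of Rpl12 for mESCKAA minus mESCFB and Rpl29 for mESCWM minus mESCFB turned sign without these 3 lines, and values without them stand beside these, some other genes and the lists of ribosomal proteins and biogenesis genes. Each sample is a bulk culture, so less mRNA per cell and fewer cells of a kind cannot be told apart.

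No ribosomal protein gene passed the test in any of the 3 comparisons. With limma's moderated test, adjusted by Benjamini-Hochberg over all 23410 rows, 0 of 56 members had an adjusted p under 0.05 for mESCKAA against mESCFB, for mESCWM against mESCFB or for mESCWM against mESCKAA, and so did 0% of all rows in each. The lowest adjusted p of a member was 0.918, 0.819 and 0.771 in that order. At an unadjusted p under 0.05 the members counted 0, 0 and 1, against 4.81%, 5.89% and 6.29% of all rows. The rank product, run here on the deposited values, called 0 members in either direction at a percentage of false positives under 0.05, and 0.111%, 0.111% and 0.278% of all rows. The lines of 2 groups did not overlap in 4, 4 and 5 members, close to the background of 8.08%, 8.13% and 8.66% of all rows. These counts hold for the single rows as well: limma's adjusted test and the rank product called 0 of the 204 rows of the members and 0 of the 228 shared rows, and 1 of the former, that of Rps23rg1, had an unadjusted p under 0.05 in 1 comparison.

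The differences were small and the intervals narrow for the abundant members. The median difference of the members was -0.019 for mESCKAA minus mESCFB, with 10 of 56 above 0, against 0.0067 over all rows with a gene and -0.017 over the 347 other rows above 11. It was -0.0036 for mESCWM minus mESCFB, with 26 above 0, against 0.0045 and -0.019. It was 0.017 for mESCWM minus mESCKAA, with 38 above 0, against -0.0068 and -0.010. The first 2 of these comparisons share the mESCFB lines. No median exceeds in size the SD of 0.020 of the 9 line medians, which is a scale and not the spread of such a difference. Without FB1, KAA2 and WM3 the medians were -0.036, -0.015 and 0.025. The count above 0 for mESCKAA minus mESCFB was 23 without KAA1 and 16 without KAA3, and that for mESCWM minus mESCFB was 17 without WM1 or WM3. Quantile normalization of the arrays gave -0.0025, -0.0090 and -0.0036, so the sign of the last of these depends on the scaling, and it put 27 members above 0 for mESCKAA minus mESCFB. The 95% interval of the difference lay within 0.3 on either side of 0 in 48, 46 and 46 of the 56 members and within 0.5 in 53, 52 and 52, so that changes of 1.41 times or more are outside the interval for these members. limma draws each SD toward a common value of 0.132 while the members' own median within-group SD was 0.042, which widens the intervals of the steady members. With that value allowed to follow the level, 5 members had an unadjusted p under 0.05 for mESCWM minus mESCKAA and 0 an adjusted p under 0.05. The share of all rows in that fit is not given here, so the 5 members have no background beside them.

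**Figure D3:**
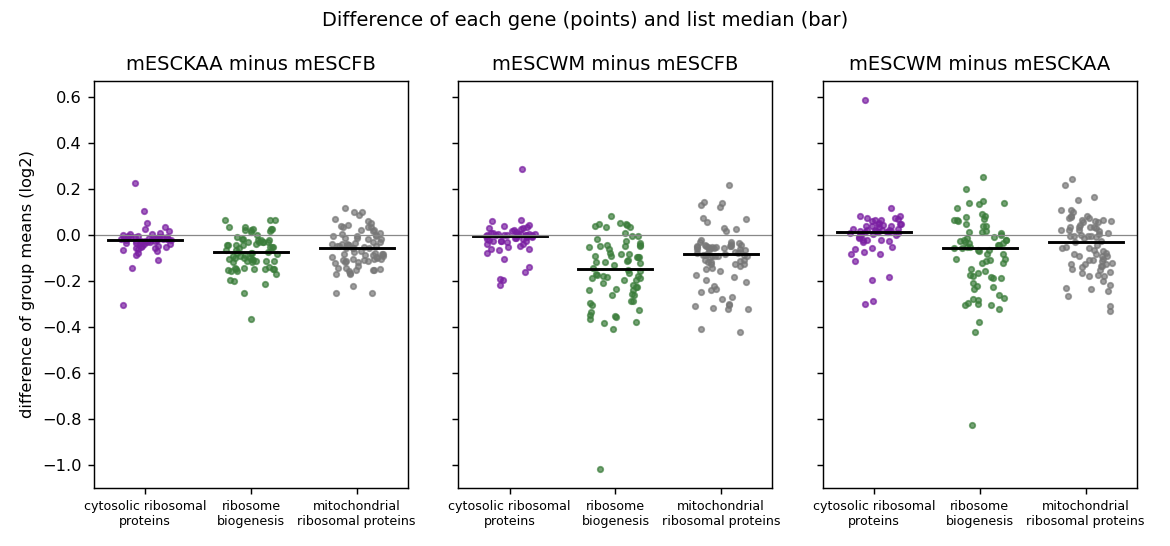
Difference of group means (y axis, log2) in the 3 comparisons for the 56 cytosolic ribosomal protein symbols, 72 ribosome biogenesis genes and 77 mitochondrial ribosomal proteins. Each point is 1 gene and each bar the median of its list. The cytosolic list has the median closest to 0 in all 3 panels, and the lowest points of the biogenesis list for mESCWM are Taf1a at -1.02 and -0.82.

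Among proteins of the stalk, Rplp0, the scaffold on which the acidic proteins sit, read 12.52, 12.41 and 12.51 in FB1 to FB3, 12.56, 12.51 and 12.53 in KAA1 to KAA3 and 12.44, 12.58 and 12.51 in WM1 to WM3. The groups overlapped, with a difference of 0.05 ± 0.07 (SE) for mESCKAA minus mESCFB and 0.03 ± 0.07 for mESCWM minus mESCFB, which turned to -0.0070 without FB2 and -0.0058 without WM2. Rplp1 was 13.17 ± 0.01 (SD, n = 3) in mESCFB, 13.21 ± 0.04 in mESCKAA and 13.14 ± 0.06 in mESCWM. Rplp2, the partner of Rplp1, ran from 7.02 in FB3 to 7.28 in WM3 with differences of -0.05 to 0.07, of which that for mESCKAA minus mESCFB turned positive without FB1 or KAA1 and that for mESCWM minus mESCFB negative without FB3 or WM3. Rpl12 had group means of 6.76 ± 0.24, 6.87 ± 0.26 and 6.57 ± 0.29, and its lines overlapped in every comparison. Its mean difference of 0.10 for mESCKAA minus mESCFB turned to -0.033 without FB1 and -0.084 without FB1, KAA2 and WM3.

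In the 5S particle, Rpl5 read 11.52, the same value to the last digit, in FB1, FB2, FB3 and KAA3, 11.53 in KAA2, 11.47 in KAA1, 11.61 in WM1, 11.46 in WM2 and 11.50 in WM3. Its group means were 11.52 in mESCFB, 11.51 in mESCKAA and 11.52 in mESCWM, and WM1 and WM2 were the ends of the range within 1 group. Repeats of a value between lines occurred in 62.5% of the members and 62.3% of all rows. Its partner Rpl11, measured in 6 rows shared with Brf2 at 12.25 to 12.81, showed differences of -0.038 to 0.024 over all rows and comparisons.

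Of the other large subunit genes, Rpl34 had the largest departure in mESCWM. It read 10.64, 10.61 and 10.62 in FB1 to FB3, 10.63, 10.60 and 10.66 in KAA1 to KAA3, and 10.38, 10.31 and 10.61 in WM1 to WM3. WM1 and WM2 were thus low and WM3 was within the range of the other groups. The difference was -0.19 ± 0.09 (SE) from mESCFB (unadjusted p = 0.059, adjusted p = 0.819) and -0.19 ± 0.09 from mESCKAA (adjusted p = 0.771), and -0.27 and -0.30 without FB1, KAA2 and WM3. The 4 rows that Rpl34 shares with its processed copies went the other way, 0.014 to 0.073 above mESCFB and 0.046 to 0.17 above mESCKAA. The direction for Rpl34 therefore depends on the row.

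Rpl21, a protein of the large subunit, had a wider spread within the IVF groups than within mESCFB. This was not particular to Rpl21. Many other members, such as Rpl10a, Rpl5 and Rps18, showed it too, while Rpl14 and Rpl29 spread most within mESCFB. It read 12.22, 12.22 and 12.24 in FB1 to FB3, 12.20, 12.20 and 12.02 in KAA1 to KAA3 and 12.37, 12.06 and 12.35 in WM1 to WM3. The mESCKAA lines all lay under the mESCFB lines, by 0.09 ± 0.10 (SE) on average, most of it from KAA3, and the mESCWM lines lay on both sides. All 32 shared rows of Rpl21, which also name Camkv and many of them Cep170, had a lower mean in mESCKAA than in mESCFB, by up to 0.067. Rpl29, of the large subunit, read 10.81, 11.14 and 11.03, then 10.88, 11.05 and 11.03, and then 11.05, 10.97 and 11.16 in the lines of mESCFB, mESCKAA and mESCWM. FB1 was its lowest line and WM3 its highest, and its differences were -0.009 ± 0.10, 0.07 ± 0.10 and 0.08 ± 0.10 for mESCKAA minus mESCFB, mESCWM minus mESCFB and mESCWM minus mESCKAA. Without FB1, KAA2 and WM3 these were -0.13, -0.075 and 0.059, so the direction for mESCWM minus mESCFB turned. It also turned without FB1 alone (-0.025), and that for mESCKAA minus mESCFB turned without FB2 (0.063), FB3 (0.012) or KAA1 (0.045). All 35 shared rows of Rpl29 had a lower mean in mESCKAA than in mESCFB and a higher mean in mESCWM than in mESCKAA. For mESCWM minus mESCFB, 17 of them lay above 0. Rpl14 read 10.35, 10.59 and 10.28 in mESCFB, 10.26, 10.36 and 10.17 in mESCKAA and 10.38, 10.26 and 10.35 in mESCWM. Its difference of -0.14 ± 0.10 between mESCKAA and mESCFB came mainly from FB2, the highest line. The lines of Rpl23a, which were so close together, did not overlap between mESCKAA and mESCFB, at a difference of -0.016 ± 0.060, nor between mESCWM and mESCKAA, at 0.018 ± 0.060. Rpl19, at the tunnel exit, lay higher in all mESCWM lines than in all mESCFB lines by 0.04 ± 0.06, and Rpl41, a peptide at the subunit interface, lay higher in all mESCWM than in all mESCKAA lines by 0.024 ± 0.062. Under quantile normalization the differences of Rpl23a and Rpl41 for mESCWM minus mESCKAA were -0.0042 and -0.0099.

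In the small subunit, Rps3, at the mRNA entry channel, was the bright member that stood apart in mESCWM from both other groups. It read 12.09, 12.09 and 12.13 in mESCFB, 12.09, 12.14 and 12.13 in mESCKAA and 12.06, 12.06 and 11.99 in mESCWM. Every mESCWM line was below every other line, by 0.07 ± 0.06 (SE) from mESCFB and 0.08 ± 0.06 from mESCKAA on average (adjusted p = 0.899 and 0.809). Rps14, of the platform, lay higher in all mESCWM lines (12.20 to 12.23) than in mESCFB (12.10 to 12.18), by 0.06 ± 0.07, while its other row went the other way at -0.012. Rps2, at the entry channel, read 12.25, 12.21 and 12.26, then 12.24, 12.20 and 12.25, and then 12.17, 12.23 and 12.20 in the 3 groups. Its group means of 12.24 ± 0.03, 12.23 ± 0.02 and 12.20 ± 0.03 (SD, n = 3) overlapped. The rows of Rps2 differed in direction. Its 3 own rows ran from -0.071 to 0.040 for mESCWM minus mESCFB. All 17 shared rows of Rps2 had a higher mean in mESCKAA than in mESCFB, by 0.014 to 0.060. All of these had a lower mean in mESCWM than in mESCKAA, by up to 0.045.

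Rps15a again showed the split between a low row of its own and bright shared rows. Its own row read 7.35, 7.28 and 7.34 in mESCFB, 7.40, 7.39 and 7.87 in mESCKAA and 7.34, 7.11 and 7.34 in mESCWM. The mESCKAA lines were above all others, with KAA3 far ahead, at a difference of 0.23 ± 0.14 (SE) from mESCFB and with mESCWM lower by 0.29 ± 0.14 (adjusted p = 0.918 and 0.771). Without KAA3 these became 0.065 and -0.13. In the 2 shared rows of Rps15a, mESCKAA was lower than mESCFB by up to 0.044 and mESCWM higher than mESCKAA by 0.060 to 0.077.

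Both X-linked members were highest in mESCFB lines. Rps4x, the X-encoded isoform of protein S4, read 12.26, 12.34 and 12.27 in mESCFB, 12.24, 12.22 and 12.24 in mESCKAA and 12.26, 12.19 and 12.28 in mESCWM, and FB2 was its highest line in all 5 of its rows. All mESCKAA lines lay below all mESCFB lines, by 0.06 ± 0.07 (SE; adjusted p = 0.933). Rpl36a, of the large subunit, read 11.99, 12.05 and 12.02 in mESCFB, 11.99, 11.99 and 11.92 in mESCKAA and 11.97 and 11.96 in WM2 and WM3, with WM1 between FB1 and FB3. It was highest in FB2 in this row and in FB3 in its other row. Over 317 X-linked genes the median deviation minus that of 9657 autosomal genes was 0.304 in FB2 and 0.138 in FB3 and between -0.112 and -0.015 in the other lines. The part of this shift in the values of Rps4x, Rpl36a and any other X-linked gene named here, the biogenesis genes included, was not tested.

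**Figure D4:**
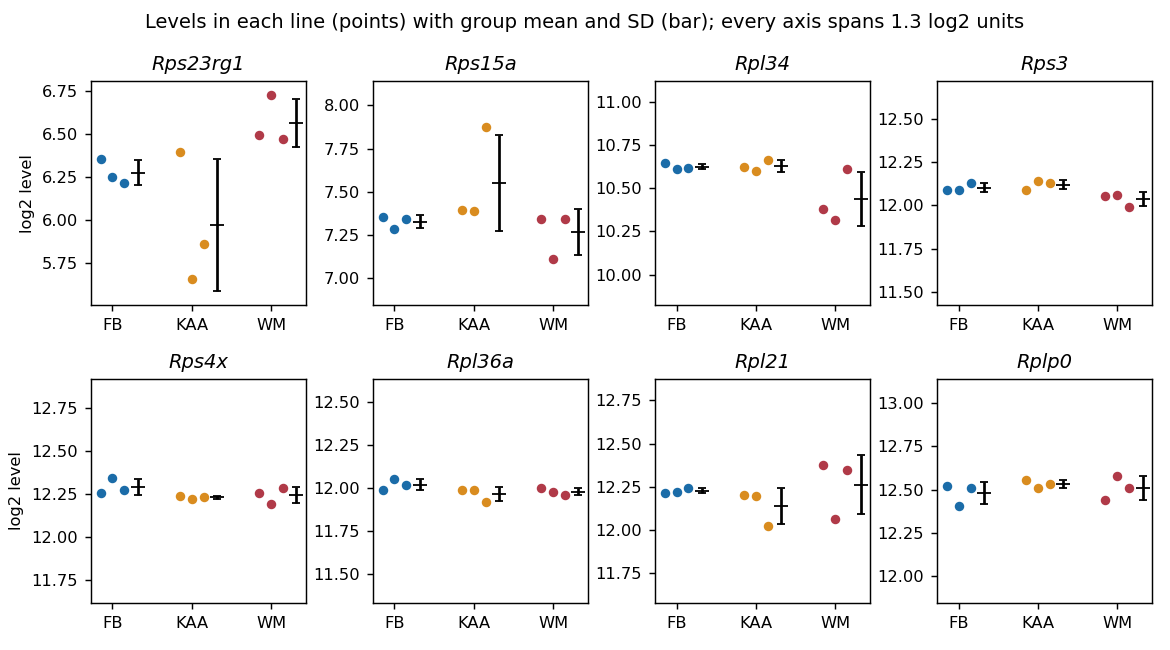
Log2 levels (y axis, each panel spanning 1.3 units) of 8 members in the 3 lines of each group (points; FB, mESCFB; KAA, mESCKAA; WM, mESCWM) with the group mean and SD (bars). Rps23rg1 is highest in the mESCWM lines and lowest in KAA2, Rps15a is far higher in KAA3 than in the other lines, WM1 and WM2 are low in Rpl34, Rpl21 spreads in the IVF groups, and Rps3, Rps4x, Rpl36a and Rplp0 each span less than 0.2.

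The largest difference of any member belonged to a symbol that is not a ribosomal protein. Rps23rg1 (Rps23 retroposed gene 1), which arose from a copy of Rps23, read 6.36, 6.25 and 6.22 in mESCFB, 6.40, 5.66 and 5.86 in mESCKAA and 6.49, 6.72 and 6.47 in mESCWM. All mESCWM lines were above all other lines, and KAA2 and KAA3 were the lowest. The difference was 0.59 ± 0.17 (SE), a factor of 1.51, for mESCWM minus mESCKAA (unadjusted p = 0.008, adjusted p = 0.771), 0.29 ± 0.17 for mESCWM minus mESCFB and -0.30 ± 0.17 for mESCKAA minus mESCFB. Without FB1, KAA2 and WM3 these were 0.48, 0.37 and -0.10. The 6 rows of Rps23 itself, shared with a copy at 12.22 to 12.27, differed by -0.012 to 0.009 between mESCWM and mESCKAA.

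The remaining related symbols gave no call. Rps19bp1, a nucleolar protein that binds Rps19, had group means of 9.28 ± 0.09, 9.17 ± 0.08 and 9.12 ± 0.11 (SD, n = 3) in mESCFB, mESCKAA and mESCWM, with overlapping lines. Rps4l, annotated in RefSeq as a transcribed pseudogene, read 11.35, 11.24 and 11.17 in mESCFB, 11.40, 11.15 and 11.09 in mESCKAA and 10.81, 11.09 and 11.21 in mESCWM. WM1 was its lowest line, and the difference of mESCWM from mESCFB was -0.22 ± 0.12 (SE). Rps27l, a paralog of Rps27 and a target of p53, had group means of 11.62 ± 0.01, 11.61 ± 0.11 and 11.56 ± 0.13.

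Among genes of the machinery that makes ribosomes, most differences from mESCFB lay below 0 in mESCWM. Of 73 listed genes for ribosome biogenesis (ribosomal RNA synthesis, processing and assembly), 72 were measured, and limma's adjusted test called 0 of them in every comparison. For mESCWM minus mESCFB their median difference was -0.15, 9 of 72 lay above 0, and 14, all lower in mESCWM, had an unadjusted p under 0.05, against 5.89% of all rows. The rank product called Taf1a, a subunit of the factor that places RNA polymerase I at the ribosomal RNA promoter. Taf1a read 7.07, 7.21 and 7.10 in mESCFB, 7.03, 6.40 and 7.36 in mESCKAA and 6.36, 5.71 and 6.25 in mESCWM, so all mESCWM lines were lowest. Its difference was -1.02 ± 0.24 (SE) from mESCFB (limma adjusted p = 0.732; percentage of false positives 0.027) and -0.82 ± 0.24 from mESCKAA. Its call was lost at a percentage of false positives of 0.12 over all rows of the array, at 0.12 without FB1, KAA2 and WM3, and at 0.054 to 0.24 on leaving out WM1, WM2 or any mESCFB line. Nob1, the nuclease that finishes the small subunit RNA, read 8.44 to 8.56 in mESCFB, 8.47 to 8.58 in mESCKAA and 8.20 to 8.24 in mESCWM, a difference of -0.29 ± 0.07 from mESCFB and -0.30 ± 0.07 from mESCKAA. Dkc1, the pseudouridine synthase of ribosomal RNA, differed from mESCFB by -0.37 ± 0.10 in mESCKAA and -0.35 ± 0.10 in mESCWM. For mESCKAA minus mESCFB the list's median was -0.073, with 12 above 0 and 2 at an unadjusted p under 0.05, against 4.81% of all rows. For mESCWM minus mESCKAA it was -0.056, with 22 above 0 and 5 at an unadjusted p under 0.05, against 6.29% of all rows. Without FB1, KAA2 and WM3 the medians were 0.008, -0.18 and -0.17, with 2, 20 and 21 genes at an unadjusted p under 0.05, for mESCKAA minus mESCFB, mESCWM minus mESCFB and mESCWM minus mESCKAA. All 3 medians were also below 0 under quantile normalization (-0.027, -0.12 and -0.064) and median centring (-0.088, -0.16 and -0.058). The counts at an unadjusted p under 0.05 hung on single lines: for mESCWM minus mESCFB it was 7 without FB3, 5 without WM1, 8 without WM2 and 23 without WM3, and for mESCWM minus mESCKAA 3 without KAA1, 8 without KAA2 and 19 without WM3. The share of all rows at that p in the fits with lines left out is not given here. For mESCKAA minus mESCFB, 24 genes lay above 0 without FB1 and 29 without KAA2. The negative median for mESCKAA minus mESCFB thus rested on these 3 lines, and that for mESCWM minus mESCFB did not.

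The mitochondrial ribosomal proteins gave a median of -0.082 for mESCWM minus mESCFB, with 11 of 77 above 0 and 12, all lower in mESCWM, at an unadjusted p under 0.05, against 5.89% of all rows. Mrpl18, which read 10.02, 10.16 and 10.05 in mESCFB and 9.59, 9.67 and 9.71 in mESCWM, had the largest of these differences, -0.42 ± 0.08 (SE; adjusted p = 0.592), and Mrpl9 followed at -0.41 ± 0.11. The count of 12 was 4 without WM1 and 7 without WM2, with no share of all rows in these fits beside it. Of the 77 genes, 19 lay above 0 without FB2 and 18 without WM1. Their median was -0.054 for mESCKAA minus mESCFB, with 17 above 0, and -0.028 for mESCWM minus mESCKAA, with 31 above 0. Without FB1, KAA2 and WM3 the medians were -0.060 for mESCKAA minus mESCFB, -0.12 for mESCWM minus mESCFB and -0.034 for mESCWM minus mESCKAA. Under quantile normalization 34 genes lay above 0 for mESCKAA minus mESCFB. Whether the lists differ from the cytosolic members beyond the spread of the lines was not tested.

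Genes that share the translational control of the ribosomal proteins had medians near 0. Of 17 listed elongation factors and other genes with a terminal oligopyrimidine tract, 13 were measured, with median differences of -0.028, -0.014 and 0.026 in the 3 comparisons and 0 at an unadjusted p under 0.05. Npm1, a nucleolar chaperone, read 11.28, 11.29 and 11.30 in mESCFB, 11.15, 11.20 and 11.10 in mESCKAA and 11.21, 11.24 and 11.38 in mESCWM, with every mESCKAA line below every mESCFB line, by 0.14 ± 0.07 (SE). Of 19 genes of mTOR and S6 kinase signaling, 17 were measured. Their medians were -0.11, -0.078 and 0.060, and 0, 0 and 4 had an unadjusted p under 0.05, against 4.81%, 5.89% and 6.29% of all rows. Larp1, which binds the oligopyrimidine tract, read 8.95, 8.54 and 8.77 in mESCKAA and 8.97, 9.17 and 9.19 in mESCWM, a difference of 0.36 ± 0.11 that was 0.21 without FB1, KAA2 and WM3 and 0.15 as the mean of its rows. Akt1s1, an inhibitor within mTOR complex 1, ran the other way, from 6.96 to 7.13 in mESCKAA to 6.65 to 6.82 in mESCWM, a difference of -0.28 ± 0.08. Both had an adjusted p of 0.765 or more.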

How the data were processed

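Transcript levels were measured in 9 mESC lines, 1 array per line and 3 lines per group, grouped and numbered by the sample labels. The deposited values are log2 signals: per the labels the authors used Affymetrix Expression Console with R 3.1.0, and their methods name robust multiarray (RMA) normalization from affylmGUI, that is background correction, normalization between arrays and a summary of the probes of each transcript cluster. Of 35556 clusters, 12146 carry no gene, and the other 23410 were tested. The build behind the annotation is not given in the sources used here, so coordinates come from RefSeq alone. The number of arrays limits the precision, and since all spread is between lines, p-values cover lines and their cultures together.

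Group means of all 9 lines entered a linear model (lmFit, then eBayes, of limma 3.58.1 under R 4.3.3), with p-values adjusted by Benjamini-Hochberg over the tested rows, two-sided, at 0.05. The rank product was computed in numpy 2.4.6 on Python 3.11.15 from the 9 pairwise differences between lines of 2 groups, with 100 permutations within arrays. Both were tested on simulated data. Tables used pandas 2.3.3 and plots matplotlib 3.10.9. The members, gene lists and tests were chosen with earlier results of these data known. Lists and single members are described by values and counts, with no test of a list.

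The text names the 4 members with the smallest p in each direction and comparison, those at the ends of the levels and spreads, those of the stalk, the 5S particle, the X chromosome and related symbols, the ribosomal protein genes in the text of the study, members with rows over 1 apart, and up to 3 genes per other list. Members named only because their lines did not overlap, or as examples of a level or an order of lines, were chosen after their values were seen.

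Alternatives were quantile normalization, median centring, all rows, rows at or above the median level, the mean of a symbol's rows, a trend in the prior variance, the 6 lines compared, the replicate numbers as a block, other thresholds of the rank product, the list without related symbols, and fits without single lines or without FB1, KAA2 and WM3. Values for the members above 11 alone and for the other lists and genes in these settings were chosen after seeing the data.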

Additional observations from a re-analysis of the deposited data

How the results depend on the processing

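Limma's adjusted test and the rank product called 0 members in all 3 comparisons under every alternative run, with a lowest adjusted p of 0.386 (Rpl34 for mESCWM minus mESCFB, without WM3) and a lowest percentage of false positives of 0.103. Of 51 differences followed, the 4 with the smallest p in each direction and comparison and the others that the text prints, 43 kept their direction throughout and 8 did not. For mESCKAA minus mESCFB, Rpl12 (0.10) was -0.084 without FB1, KAA2 and WM3 and ran from -0.033 to 0.25 when single lines were left out. Rplp2 (-0.047) was 0.0075 under quantile normalization and from -0.096 to 0.016 without single lines, and Rpl29 (-0.0089) was 0.020 and from -0.10 to 0.063. For mESCWM minus mESCFB, Rplp0 (0.030) ran from -0.0070 to 0.065 without single lines, Rplp2 (0.024) from -0.046 to 0.080 and Rpl29 (0.067) from -0.025 to 0.14, with -0.075 for Rpl29 without FB1, KAA2 and WM3. For mESCWM minus mESCKAA, Rpl23a (0.018) and Rpl41 (0.024) were -0.0042 and -0.0099 under quantile normalization. The members above 0 for mESCKAA minus mESCFB (10) were 27 under quantile normalization, 6 under median centring and 8 to 23 without single lines. Those for mESCWM minus mESCFB (26) were 11 under median centring and 17 to 35 without single lines. The median for mESCWM minus mESCKAA (0.017) was -0.0036 under quantile normalization. The other medians moved by less than the SD between lines. The causes were not tested. With a replicate block, the medians stayed at -0.019, -0.0036 and 0.017 and 3 members instead of 1 had an unadjusted p under 0.05 for mESCWM minus mESCKAA. The share of all rows with the block is not given here. Deviations of lines with the same number correlated at -0.013 to 0.33, and 8 of 9 lines correlated best with their own number in another group. The sample titles give a number and no pairing, and the main p-values treat the lines as unpaired. Whether lines of the same number share a source was not tested. Array signals near the top of the scale, and rows shared with copies of a gene or with other genes, limit what these data can resolve.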
